A study of Homo sapiens with 9 samples.

Results

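UGT8 and 9 genes that make, glycosylate or break down its ceramide substrate and its lipid product were followed in HKC-8 cells, an established line of human kidney proximal tubular cells. They are 10 of the 20323 genes of the expression table. UGT8 was taken because it was the 1 gene called lower when cells carrying a Wnt1 plasmid were compared with empty-vector cells, and the others were listed by name for their place in the same pathway. The Wnt1 against control values of the 10 genes are therefore given as a description, without a test.

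The study, whose title names Wnt/beta-catenin/ATF3 signaling and mitophagy in kidney injury, sequenced polyadenylated RNA of 9 libraries in 3 groups of 3. Control cells carried the empty vector pcDNA3, Wnt1 cells the plasmid p-Wnt-1, and Wnt1_KP6 cells the same plasmid together with KP6, a peptide derived from Klotho. All groups were thus transfected, all carry the batch label 1, and no library analysed here combines KP6 with the empty vector. The labels give no dose, time after transfection or culture of origin, so each p-value covers just the variation among these libraries, and that variation may be technical. Library totals ranged from 21199078 to 27507623 expected counts.

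Sphingolipids are built on ceramide. Serine palmitoyltransferase starts the sphingoid base, ceramide synthases attach a fatty acid to it, and ceramide then receives a head group. UGT8, the ceramide galactosyltransferase of the endoplasmic reticulum, adds galactose, and GAL3ST1 sulfates that galactosylceramide to sulfatide. UGCG, the glucosylceramide synthase of the Golgi, adds glucose instead and opens the route to lactosylceramide, globosides and gangliosides. Galactosylceramide and sulfatide are best known as lipids of the myelin sheath, and the kidney tubule is another site that holds them.

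RefSeq start-site windows were matched for 9 of the 10 genes, in 17 windows of 250 bases upstream of a start (GRCh38.p14). Those of UGT8 and UGCG are shown because they are the first enzymes of the 2 competing branches and the 2 genes whose Wnt1 libraries all lay below the control libraries, and that of GAL3ST1 because its level varied most between replicates. Where a gene had several windows the most upstream is shown, and the UGCG window is cut to 202 bases. The stretches are chr4:114598152-114598401 on the plus strand for UGT8, chr9:111896564-111896765 on the plus strand for UGCG and chr22:30574666-30574915 on the minus strand for GAL3ST1. Each ends before the annotated gene. Capitals mark the GC box GGGCGG, or CCGCCC where it reads on the other strand.
UGT8: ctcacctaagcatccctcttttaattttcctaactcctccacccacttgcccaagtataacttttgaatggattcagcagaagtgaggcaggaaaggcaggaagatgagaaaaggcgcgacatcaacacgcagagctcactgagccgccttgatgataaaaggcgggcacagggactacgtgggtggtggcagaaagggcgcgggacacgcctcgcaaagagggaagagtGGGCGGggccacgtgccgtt
UGCG: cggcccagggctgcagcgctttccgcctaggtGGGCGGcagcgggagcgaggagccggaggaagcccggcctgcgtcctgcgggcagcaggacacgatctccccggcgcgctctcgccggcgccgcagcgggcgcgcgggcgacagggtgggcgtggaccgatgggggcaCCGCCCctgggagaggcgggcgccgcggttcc
GAL3ST1: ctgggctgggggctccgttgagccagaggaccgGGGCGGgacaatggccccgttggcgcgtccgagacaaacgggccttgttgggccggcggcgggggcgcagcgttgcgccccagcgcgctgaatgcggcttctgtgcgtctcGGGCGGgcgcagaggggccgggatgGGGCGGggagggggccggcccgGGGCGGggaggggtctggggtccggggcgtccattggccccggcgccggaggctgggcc
The UGT8 stretch held 1 GC box and 54.8% G and C, the UGCG stretch 2 and 79.2%, and the GAL3ST1 stretch 4 and 78.4%. The median over all 35116 windows was 58%. Other windows of the same gene differed from the one shown. Those of UGT8 held 3 GC boxes with 73.2% and 1 with 59.2%. Those of GAL3ST1 held 0 with 58% and 0 with 56.8%. The uncut UGCG window held 3 with 78.4%. GC boxes were in 12 of the 17 windows of these genes and in 42.6% of all windows. The TCF/LEF core CTTTGAT (2.26% of all windows, either strand), the AP-1 element TGANTCA (6.57%) and the CRE/ATF element TGACGTCA (1.65%) matched in 0 of the 17. These are matches of letters only, and the absence of a match says nothing about the factors.

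Replicate 1 of every group stood apart from replicates 2 and 3. Its mitochondrial share of counts was 5.18% to 5.72%, against 7.01% to 7.97% in the other 6 libraries. ATF3, the transcription factor of the study's title, was at 30.3 CPM (counts scaled to library size) in Wnt1 replicate 1 and at 93.4 and 93.9 CPM in the other Wnt1 libraries. With KP6 it was at 25.4 CPM in replicate 1 and at 664 and 668 CPM in the others. In control the order was the other way, with 18.3 CPM in replicate 1 and 7.85 and 8.78 CPM in replicates 2 and 3. Of 11 proximal tubule markers, GGT1 and PAX8 averaged at least 1 CPM, and the defining transporters and receptors LRP2, CUBN, SLC34A1, SLC5A2 and SLC22A6 stayed below it. WNT1 itself had 0 counts in every control and every Wnt1 library and 1, 2 and 0 counts with KP6, so the files hold no check of the plasmid, and "Wnt1" means the library labelled so. Counted over all genes, replicate 1 of Wnt1 and of Wnt1_KP6 were about as close to each other (chi-square per degree of freedom 3.45) as the other replicate pair within Wnt1 (3.09) and within Wnt1_KP6 (3.32), replicate 2 with 3, while Wnt1 and Wnt1_KP6 differed by 40.9 in replicate 2 and 42.4 in replicate 3. Every comparison of Wnt1_KP6 with Wnt1 over all libraries includes that close pair. Calls that changed when replicate 1 was left out, a choice made after seeing the data, are given below for the genes described.

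Compared per length, in FPKM (fragments scaled to transcript length and library size), the first enzyme of the glucosylceramide branch, UGCG, was well above UGT8, that of the galactosylceramide branch. CERS2, which makes very-long-chain ceramides, had the highest mean over the 9 libraries, 139 FPKM ± 25.2 (SD). UGCG followed at 76.3 ± 14.5, then B4GALT5 at 45.0 ± 13.4, SPTLC1 at 39.7 ± 2.12, CERS6 at 22.8 ± 1.499, CERS5 at 17.1 ± 1.73, UGT8 at 11.2 ± 3.57, A4GALT at 6.39 ± 2.65 and GAL3ST1 at 4.46 ± 4.402 FPKM. GALC was last at 0.0272 ± 0.0333. Libraries did not overlap between SPTLC1 and CERS6, between CERS6 and CERS5, or between GAL3ST1 and GALC. All other neighbours overlapped across libraries. Read within each library, UGT8 was above A4GALT in all 9, CERS2 above UGCG, UGCG above B4GALT5 and CERS5 above UGT8 in 8, A4GALT above GAL3ST1 in 7, and B4GALT5 above SPTLC1 in 4.

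**Figure D1:**
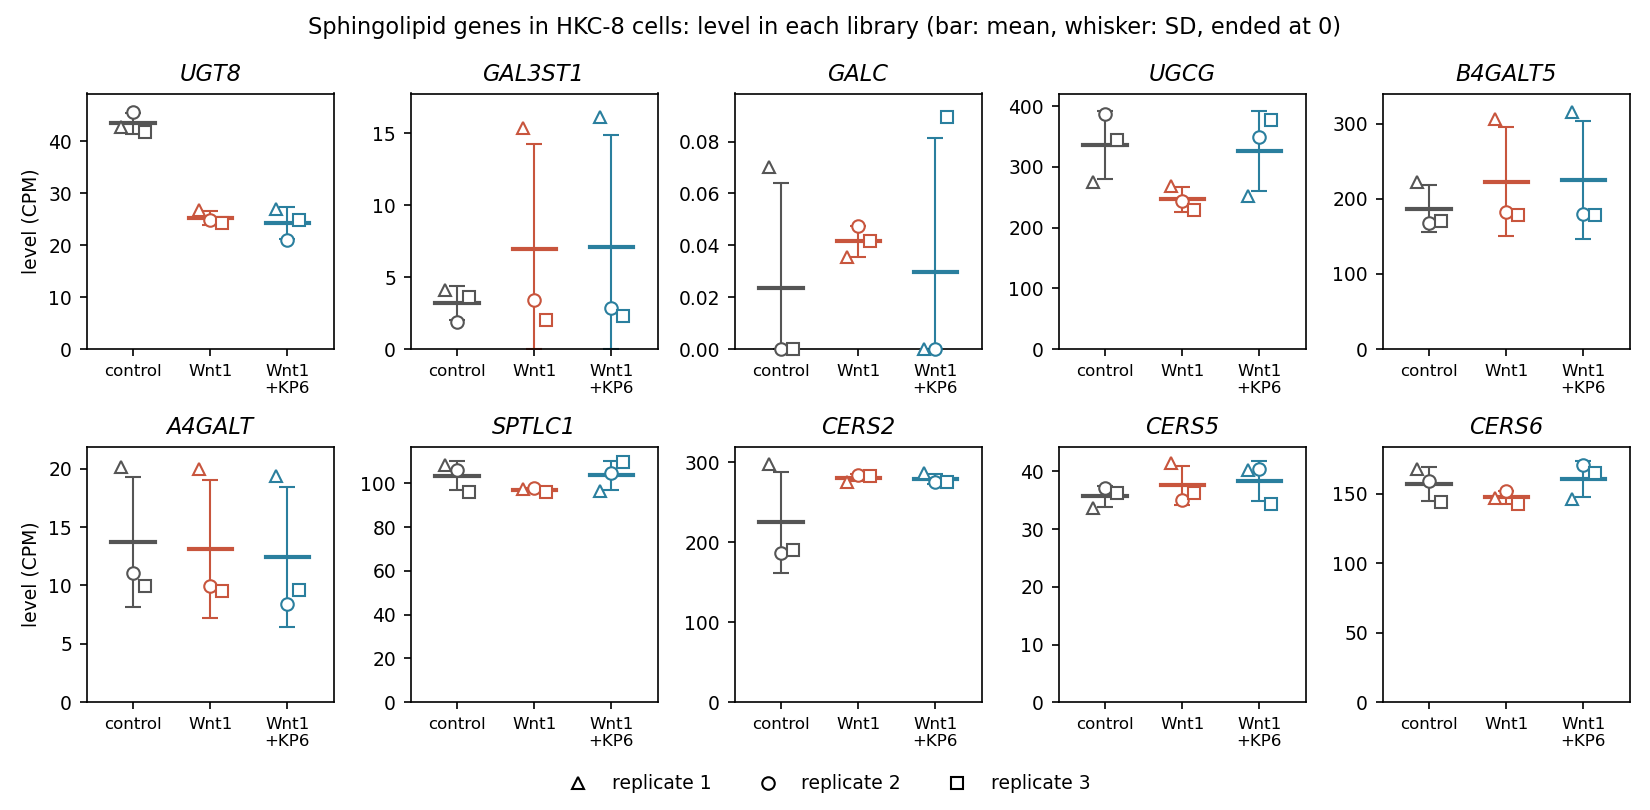
Level of each gene in CPM (vertical axis, linear, from 0, scaled per gene) in the 3 libraries of each group; the horizontal bar is the mean and the whisker the SD, ended at 0. UGT8 lies at 41.9 to 45.6 CPM in control and at 20.9 to 27.1 CPM in the 6 other libraries. B4GALT5, A4GALT and GAL3ST1 are highest in replicate 1 of every group. For GAL3ST1 that replicate is at 4.08 CPM in control, 15.3 CPM in Wnt1 and 16.1 CPM in Wnt1_KP6.

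UGT8 (ENSG00000174607, GRCh38 chr4:114598455-114678224, plus strand) was at a lower level in both groups that carried the Wnt1 plasmid. Control replicates 1, 2 and 3 held 42.8, 45.6 and 41.9 CPM of UGT8, and Wnt1 replicates 26.7, 24.8 and 24.2 CPM. In Wnt1_KP6 it was 27.1, 20.9 and 24.8 CPM. Every library with the plasmid lay below every control library, and the groups with and without KP6 overlapped. The means were 43.4 CPM ± 1.96, 25.3 ± 1.31 and 24.3 ± 3.10 (SD, n = 3). In bulk RNA, fewer cells that transcribe a gene and less RNA per cell cannot be told apart.

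Between Wnt1 and control the UGT8 difference was -0.78 ± 0.11 (log2 fold change ± SE), or 1.72-fold lower, and this is the value that chose the gene. It was -0.68 within replicate 1 and -0.83 ± 0.10 over replicates 2 and 3, and the choice of the gene by these libraries fixes that they have one sign. Against control, UGT8 in Wnt1_KP6 fell by 0.84 ± 0.11 on the log2 scale, 1.79-fold (edgeR quasi-likelihood test, adjusted p = 0.0303). That test shares the control libraries with the comparison that chose UGT8 and is not independent of it. The log2 fold change stayed between -0.93 and -0.75 when each library was left out in turn, but the call was lost in 6 of the 9 cases. The edgeR adjusted p was 0.227 and 0.113 when control replicate 2 or 3 was dropped, 0.1004 and 0.0881 when the same was done in Wnt1, and 0.158 and 0.177 when it was done in Wnt1_KP6. In those 6 fits at most 0.015% of all genes were called in this comparison.

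KP6 did not bring a detectable change of UGT8 in cells with the plasmid. Between Wnt1_KP6 and Wnt1 the difference was -0.06 ± 0.11 on the log2 scale (edgeR adjusted p = 1). By replicate number it was 0.02, -0.25 and 0.03, with both signs among the replicates. A missed threshold does not show that the levels were equal.

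GAL3ST1 (ENSG00000128242, chr22:30554635-30574587, minus strand), the sulfotransferase that turns galactosylceramide into sulfatide, was high in 2 libraries. It was at 4.08, 1.87 and 3.62 CPM in control replicates 1, 2 and 3, at 15.3, 3.42 and 2.00 CPM in Wnt1 and at 16.1, 2.82 and 2.28 CPM in Wnt1_KP6. Replicate 1 of both plasmid groups was several times above all other libraries, control replicate 1 included, and the remaining libraries of the 3 groups overlapped. Within replicate 1 the difference from control was 1.89 in Wnt1 and 1.96 in Wnt1_KP6. The Wnt1 against control value of 1.12 ± 0.93 was -0.02 ± 0.32 over replicates 2 and 3. For Wnt1_KP6 against control, 1.15 ± 0.93 (edgeR adjusted p = 0.614) became -0.10 ± 0.32.

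GALC (ENSG00000054983, chr14:87837820-87993665, minus strand) encodes the lysosomal galactocerebrosidase that removes galactose from galactosylceramide and is deficient in Krabbe disease. Its counts were 2, 0 and 0 in control, 1, 1 and 1 in Wnt1 and 0, 0 and 2 in Wnt1_KP6. All of them lie under the 3 counts that a count of 0 allows, which is 0.106 to 0.142 CPM in these libraries, and the gene did not enter the tests. FA2H, which hydroxylates the fatty acid of many myelin galactolipids, reached at most 0.190 CPM. Among myelin and oligodendrocyte markers, MOG had 0 counts in all 9 libraries and MAG and MOBP averaged below 1 CPM, while CNP and MBP, which many other cells also transcribe, averaged 106 and 11.9 CPM.

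UGCG (ENSG00000148154, chr9:111896766-111935369, plus strand), the glucosylceramide synthase, was at 276, 387 and 344 CPM in control replicates 1, 2 and 3. It was at 269, 244 and 228 CPM in Wnt1 and at 252, 349 and 378 CPM in Wnt1_KP6. Every Wnt1 library was thus below every control library, by a narrow margin in replicate 1, while replicates 2 and 3 with KP6 lay in the control range. The means were 336 CPM ± 56.2, 247 ± 20.6 and 326 ± 66.0 (SD, n = 3).

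The difference of UGCG between Wnt1 and control was -0.44 ± 0.17 on the log2 scale. It was -0.04 within replicate 1 and -0.63 ± 0.07 over replicates 2 and 3. Between Wnt1_KP6 and Wnt1 the value was 0.40 ± 0.17 and did not pass (edgeR adjusted p = 1, unadjusted p = 0.0445). Here too the replicates differed, with -0.09, 0.52 and 0.73 in replicates 1, 2 and 3. With replicates 2 and 3 alone, a choice made after seeing the data, the difference was 0.62 ± 0.07 and passed (edgeR adjusted p = 2.87e-05). Against control, Wnt1_KP6 gave -0.04 ± 0.17 (edgeR adjusted p = 0.946).

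UGT8 and UGCG draw on the same ceramide, and their levels can be set against each other within a library. As a share of the UGCG level per length, UGT8 was 21.5%, 16.8% and 16.98% in control replicates 1, 2 and 3, and 14.97%, 14.8% and 15.99% in Wnt1. It was 15.01%, 8.80% and 8.72% in Wnt1_KP6. The group means were 18.4% ± 2.66, 15.3% ± 0.631 and 10.8% ± 3.61 (SD, n = 3). All control shares were above all others, and the lowest shares were those of Wnt1_KP6 replicates 2 and 3, where UGCG was at its control level and UGT8 was not. The share was not tested, since the Wnt1 and control values of UGT8 chose it.

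**Figure D2:**
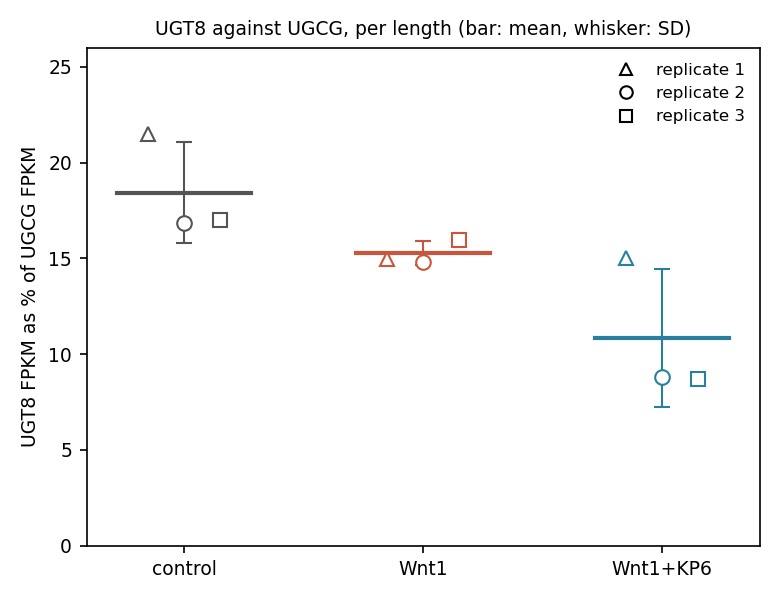
UGT8 FPKM as a percentage of UGCG FPKM (vertical axis, linear, from 0) in each library of the 3 groups; symbols give the replicate, the bar the mean and the whisker the SD. The shares run from 16.8% to 21.5% in control and are 8.80% and 8.72% in replicates 2 and 3 of Wnt1_KP6, while its replicate 1, at 15.01%, lies with the Wnt1 libraries.

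B4GALT5 (chr20:49632945-49713878, minus strand), which adds galactose to glucosylceramide to give lactosylceramide, was at 223, 168 and 171 CPM in control. It was at 306, 183 and 179 CPM in Wnt1 and at 316, 180 and 179 CPM in Wnt1_KP6. Replicate 1 was the highest in each group. The log2 fold change against control in Wnt1_KP6, 0.27 ± 0.28 (edgeR adjusted p = 0.717), was 0.08 ± 0.06 over replicates 2 and 3. A4GALT (chr22:42692112-42721298, minus strand), which makes globotriaosylceramide from lactosylceramide, showed the same split. Its level was 20.2, 11.1 and 9.94 CPM in control, 19.97, 9.97 and 9.51 CPM in Wnt1 and 19.4, 8.38 and 9.61 CPM in Wnt1_KP6. Between Wnt1_KP6 and control A4GALT gave -0.14 ± 0.43 (edgeR adjusted p = 0.92), within the spread between replicates. By replicate number the differences from control had one sign, -0.057, -0.40 and -0.048 for A4GALT and 0.50, 0.10 and 0.07 for B4GALT5. With the replicate number as a block they were -0.17 for A4GALT (edgeR adjusted p = 0.446) and 0.22 for B4GALT5 (edgeR adjusted p = 0.268).

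Of the ceramide backbone genes, CERS2 had the largest fold change in both comparisons with control. CERS2 (ENSG00000143418, chr1:150960583-150975004, minus strand) was at 297, 187 and 190 CPM in control, at 275, 283 and 282 CPM in Wnt1 and at 286, 275 and 275 CPM in Wnt1_KP6. Control replicates 2 and 3 were the 2 low libraries, and control replicate 1 was the highest of all 9. The Wnt1 against control value was 0.32 ± 0.17, with -0.11 within replicate 1 and 0.59 ± 0.06 over replicates 2 and 3. For Wnt1_KP6 against control it was 0.31 ± 0.17 and did not pass (edgeR adjusted p = 0.408). It became 0.57 without control replicate 1 (edgeR adjusted p = 0.00427) and 0.54 ± 0.06 with replicates 2 and 3 alone (edgeR adjusted p = 5.21e-06), so that 1 control library decided the call. Between Wnt1_KP6 and Wnt1 it was -0.01 ± 0.17. Exons of SETDB1 and AL590133.2 lie opposite 37.2% of the CERS2 exon bases, and the sources used here do not say whether reads were counted by strand.

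The other backbone genes were nearly level across the groups. SPTLC1 (chr9:92000087-92115384, minus strand), a core subunit of serine palmitoyltransferase, ranged from 95.9 to 108 CPM in control, from 96.2 to 97.9 in Wnt1 and from 96.4 to 110 in Wnt1_KP6. CERS5 (chr12:50129306-50167533, minus strand) and CERS6 (chr2:168455862-168775137, plus strand) make ceramides with shorter, mainly palmitoyl, chains. CERS5 ranged from 33.7 to 37.1 CPM in control, from 35.0 to 41.4 in Wnt1 and from 34.4 to 40.4 in Wnt1_KP6. CERS6 ranged from 144 to 168 CPM in control, from 143 to 152 in Wnt1 and from 146 to 171 in Wnt1_KP6, and 41.4% of its exon bases lie opposite CERS6-AS1. The largest of their KP6 differences was 0.12 ± 0.10, that of CERS6 between Wnt1_KP6 and Wnt1 (edgeR adjusted p = 1). Per length, CERS2 made up 70.6% to 80.5% of the FPKM of these 3 ceramide synthases, with the lowest shares in control replicates 2 and 3.

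Among the 9 genes tested, 2 had Wnt1 libraries that were all below the control libraries, UGT8 and UGCG, where 7.87% of all 13153 genes tested did so; the choice of UGT8 used this comparison, and nothing is read from the count. Between Wnt1_KP6 and Wnt1, edgeR called 0 of the 9, as it called 0% of all genes. DESeq2 also called 0, beside 0.153% of all genes, and 1 gene, UGCG, had an unadjusted edgeR p under 0.05, beside 2.76% of all genes. Between Wnt1_KP6 and control, edgeR called 1 gene lower, UGT8, and 0.038% of all genes lower. UGT8 was also the 1 gene of the 9 whose Wnt1_KP6 libraries were all below control, where 7.8% of all genes were. The 2 comparisons share the Wnt1_KP6 libraries and each shares a group with the comparison that chose UGT8. The median log2 fold change of the 9 genes was -0.06, 0.03 and 0.03 in Wnt1 against control, Wnt1_KP6 against Wnt1 and Wnt1_KP6 against control, beside -0.0034, 0.0011 and -0.0051 over all genes.

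**Figure D3:**
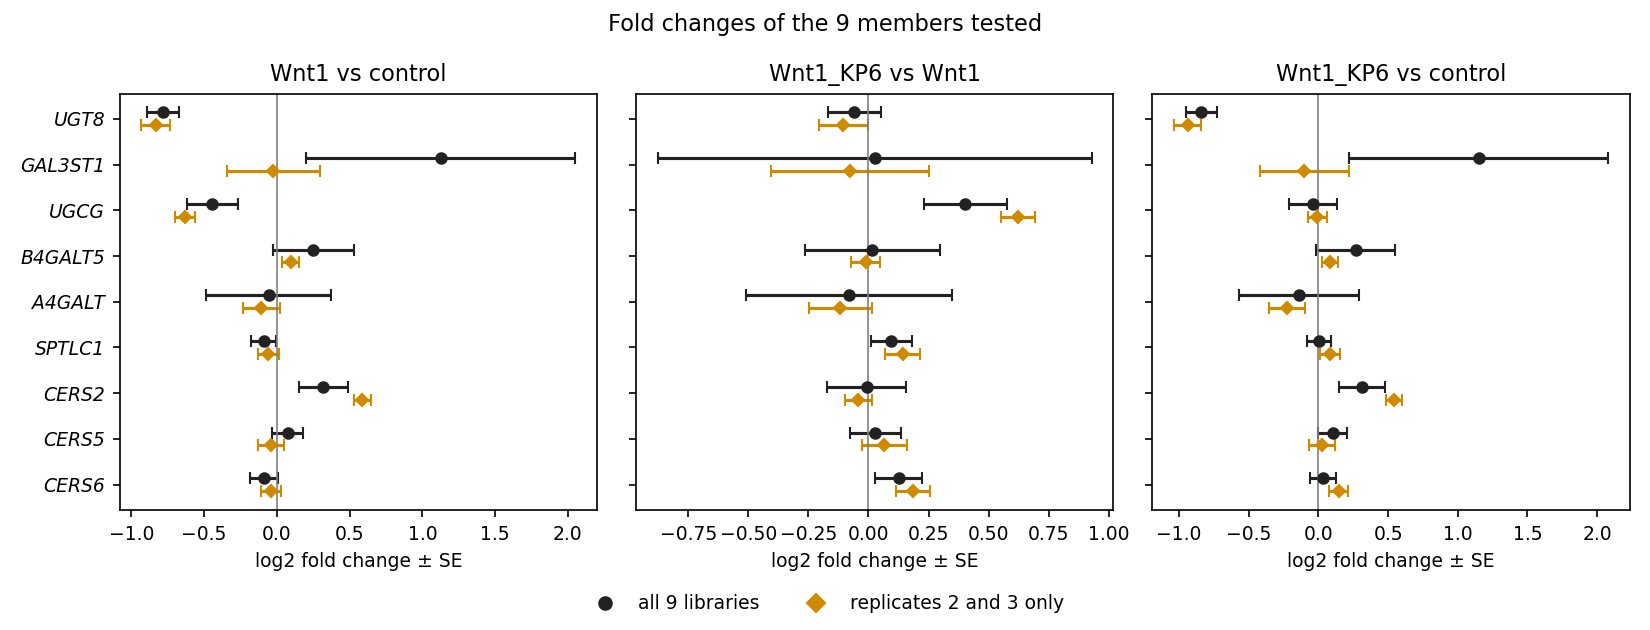
Log2 fold change with its SE (horizontal axis) of the 9 genes that entered the fit, in the 3 comparisons, over all 9 libraries (black circles) and over replicates 2 and 3 (orange diamonds). UGT8 keeps values between -0.94 and -0.78 in both comparisons with control. In the same comparisons CERS2 moves away from 0 and GAL3ST1 close to it once replicate 1 is left out. UGCG moves away from 0 in Wnt1 against control and in Wnt1_KP6 against Wnt1, and stays near 0 in Wnt1_KP6 against control.

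Replicate 1 also differed in how far KP6 separated these genes from Wnt1. Its 9 differences between Wnt1_KP6 and Wnt1 ran from -0.09 to 0.07 on the log2 scale. In replicate 2 they ran from -0.27 to 0.52 and in replicate 3 from -0.08 to 0.73. The highest value in replicates 2 and 3 was that of UGCG. The median size of the 9 differences was 0.04 in replicate 1, 0.21 in replicate 2 and 0.08 in replicate 3. Over all genes the median size was 0.08, 0.13 and 0.15. No pair of replicates of a group agreed within sampling noise, and all 9 libraries were counted.

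A list of 63 other genes of sphingolipid metabolism, without the 10 above, was read in the same fit, and 53 of them were tested. The test called 0 of the 53 in each of the 3 comparisons (edgeR, adjusted p), where 0.122% of all genes were called in Wnt1 against control, 0% in Wnt1_KP6 against Wnt1 and 0.228% in Wnt1_KP6 against control. An unadjusted edgeR p under 0.05 was met by 11, 0 and 10 of them, beside 11.2%, 2.76% and 15.8% of all genes. The libraries did not overlap for 6 genes higher and 6 lower in Wnt1 against control. These counts were 1 and 1 in Wnt1_KP6 against Wnt1, and 7 and 5 in Wnt1_KP6 against control. Over all genes, 16.5%, 5.81% and 16.5% did not overlap in either direction. DESeq2 called 1, 0 and 3, all higher, beside 2.31%, 0.153% and 5.35% of all genes: GLA in Wnt1 against control, and GLA, NEU1 and B4GALNT1 in Wnt1_KP6 against control. With replicates 2 and 3 alone, edgeR called 25 of 52 in Wnt1 against control, 6 in Wnt1_KP6 against Wnt1 and 25 in Wnt1_KP6 against control, beside 31.6%, 8.62% and 40.6% of all genes. The other 10 genes of the list, SPTSSB, CERS3, DEGS2, FA2H, SMPD3, ST8SIA1, GBGT1, ACER1, S1PR3 and S1PR4, were at or below 0.626 CPM in every library.

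Among the enzymes that break down glycosphingolipids, most of them lysosomal, 9 of 11 had values above 0 in Wnt1 against control, with a median of 0.20, and 9 of 11 in Wnt1_KP6 against control, with a median of 0.16. None of the 11 passed the edgeR test in any of the 3 comparisons, and 3, 0 and 3 had an unadjusted p under 0.05, beside 11.2%, 2.76% and 15.8% of all genes. GLA, the alpha-galactosidase that degrades globotriaosylceramide and is deficient in Fabry disease, was at 39.2, 33.4 and 33.0 CPM in control. It was at 50.4, 66.0 and 61.7 CPM in Wnt1 and at 47.6, 80.3 and 81.5 CPM in Wnt1_KP6. Control was below both other groups in every library. Of all genes, 8.67% in Wnt1 and 8.74% in Wnt1_KP6 had every library above control. The log2 fold change of GLA in Wnt1_KP6 against control was 0.99 ± 0.20 (edgeR adjusted p = 0.0766, DESeq2 adjusted p = 0.000706). It was 1.28 over replicates 2 and 3 (edgeR adjusted p = 1.4e-08). Between Wnt1_KP6 and Wnt1, GLA gave -0.08, 0.28 and 0.40 in replicates 1, 2 and 3, and 0.34 over replicates 2 and 3 (edgeR adjusted p = 0.00912).

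NEU1, the lysosomal sialidase, was at 93.2, 25.3 and 26.5 CPM in control, at 119, 106 and 109 CPM in Wnt1 and at 120, 126 and 118 CPM in Wnt1_KP6. As with CERS2, control replicates 2 and 3 were the low libraries. Its Wnt1 against control value was 1.20 ± 0.45 (edgeR adjusted p = 0.367) and became 2.05 over replicates 2 and 3 (edgeR adjusted p = 2.96e-10). HEXA, a subunit of the hexosaminidase that degrades the ganglioside deposited in Tay-Sachs disease, was at 159, 108 and 110 CPM in control, at 156, 143 and 142 CPM in Wnt1 and at 154, 135 and 131 CPM in Wnt1_KP6. This is the same split of control, and the Wnt1 against control value went from 0.23 (edgeR adjusted p = 0.632) to 0.39 over replicates 2 and 3 (edgeR adjusted p = 0.000442). HEXA was named for the comparison of Wnt1_KP6 with Wnt1, where it gave -0.07 ± 0.15 and did not pass, and not for Wnt1 against control.

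Among synthesis and transfer genes of glycosphingolipids beyond UGCG, 7 of 9 had values below 0 in Wnt1 against control, with a median of -0.30, and 5 of 9 in Wnt1_KP6 against control, with a median of -0.08. B3GALNT1, the globoside synthase, was at 38.0, 34.7 and 28.6 CPM in control, 24.6, 24.9 and 24.5 CPM in Wnt1 and 22.7, 25.9 and 27.3 CPM in Wnt1_KP6. B4GALNT1, which makes the precursor of complex gangliosides, had values in the other direction, 19.2 to 21.7 CPM in control, 22.6 to 26.5 CPM in Wnt1 and 26.02 to 27.3 CPM in Wnt1_KP6. For both genes control did not overlap the other groups. Every library was below control for 7.87% of all genes in Wnt1 and 7.8% in Wnt1_KP6, and above it for 8.67% and 8.74%. The share of genes apart from control in both groups at once was not counted. Neither of the 2 genes passed (edgeR adjusted p = 0.158 for B3GALNT1 and 0.124 for B4GALNT1 in Wnt1_KP6 against control). Over replicates 2 and 3 these were 0.062 and 0.00527. B3GNT5, which starts the lacto-series, gave 0.37 ± 0.18 between Wnt1_KP6 and Wnt1 (edgeR adjusted p = 1). By replicate it was -0.09, 0.35 and 0.81, and over replicates 2 and 3 it was 0.58 (edgeR adjusted p = 0.0115). ST3GAL5, which makes the simplest ganglioside, stayed at or below 0.598 CPM in every library.

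In the first steps of ceramide synthesis, SPTSSA, a small activating subunit of serine palmitoyltransferase, was at 19.98, 21.8 and 19.7 CPM in control, 17.1, 15.01 and 14.3 CPM in Wnt1 and 18.2, 15.9 and 15.6 CPM in Wnt1_KP6. The control libraries were all above the others. Of all genes, 7.87% in Wnt1 and 7.8% in Wnt1_KP6 had every library below control. The SPTSSA value of -0.41 ± 0.11 in Wnt1 against control did not pass (edgeR adjusted p = 0.237). Over replicates 2 and 3 it was -0.50 (edgeR adjusted p = 0.00239). SPTLC2, the catalytic partner of SPTLC1, gave -0.39 ± 0.15 in Wnt1_KP6 against control (edgeR adjusted p = 0.248), and -0.35 over replicates 2 and 3 (edgeR adjusted p = 0.00195). ORMDL2 and ORMDL3 restrain this enzyme. ORMDL2 gave 0.23 ± 0.10 in Wnt1 against control (edgeR adjusted p = 0.416), and ORMDL3 gave -0.20 ± 0.11 in Wnt1_KP6 against Wnt1 (edgeR adjusted p = 1). DEGS1, the desaturase that finishes ceramide, ranged from 96.2 to 105 CPM in control, from 76.7 to 97.4 in Wnt1 and from 84.8 to 94.2 in Wnt1_KP6. Its Wnt1 against control value was -0.26 (edgeR adjusted p = 0.409), and -0.37 over replicates 2 and 3 (edgeR adjusted p = 0.00145). CERS1 and CERS4, other ceramide synthases, were at 2.77 to 6.61 CPM and 8.28 to 12.7 CPM over the 9 libraries. CERS1 went from -0.29 in Wnt1_KP6 against control (edgeR adjusted p = 0.732) to -0.87 over replicates 2 and 3 (edgeR adjusted p = 0.0015).

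For sphingomyelin, SGMS2, a sphingomyelin synthase of the plasma membrane, resembled UGCG in its values by replicate. It was at 33.2, 39.6 and 33.2 CPM in control, 31.3, 29.7 and 27.1 CPM in Wnt1 and 28.05, 41.2 and 41.1 CPM in Wnt1_KP6. Its difference between Wnt1_KP6 and Wnt1 was 0.32 ± 0.16 over all libraries (edgeR adjusted p = 1) and 0.53 over replicates 2 and 3 (edgeR adjusted p = 0.00257). SMPD1, the acid sphingomyelinase of the lysosome, gave -0.46 ± 0.18 in Wnt1 against control (edgeR adjusted p = 0.397), and -0.54 over replicates 2 and 3 (edgeR adjusted p = 0.00303). SMPDL3A, a related phosphodiesterase, was at 12.2, 5.24 and 4.85 CPM in control and between 10.7 and 12.4 CPM in all other libraries. Its Wnt1 against control value went from 0.65 (edgeR adjusted p = 0.478) to 1.27 over replicates 2 and 3 (edgeR adjusted p = 6.96e-06). SMPD2, a neutral sphingomyelinase, gave 0.31 ± 0.15 in Wnt1_KP6 against control (edgeR adjusted p = 0.354), and 0.40 over replicates 2 and 3 (edgeR adjusted p = 0.0365).

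Of the ceramidases and the enzymes and receptors of sphingosine 1-phosphate, CERK, the ceramide kinase, ranged from 28.3 to 28.5 CPM in control, from 21.996 to 24.1 in Wnt1 and from 21.6 to 25.4 in Wnt1_KP6. Its value of -0.31 ± 0.09 in Wnt1 against control did not pass (edgeR adjusted p = 0.272), and was -0.29 over replicates 2 and 3 (edgeR adjusted p = 0.043). S1PR5, a receptor of sphingosine 1-phosphate, was at 6.37, 10.5 and 12.7 CPM in control, 7.88, 7.41 and 6.76 CPM in Wnt1 and 7.41, 5.25 and 3.58 CPM in Wnt1_KP6. Its value in Wnt1_KP6 against control, -0.86 ± 0.30 (edgeR adjusted p = 0.211), was -1.39 over replicates 2 and 3 (edgeR adjusted p = 3.25e-05) and had the opposite sign in replicate 1, 0.22. SGPL1, the lyase that ends the pathway, ranged from 60.1 to 69.9 CPM over all libraries. Over replicates 2 and 3, edgeR called 5 of the 14 tested genes of this group higher and 2 lower in Wnt1 against control. The counts were also 5 and 2 in Wnt1_KP6 against control, and 1 and 2 in Wnt1_KP6 against Wnt1. Of all genes, 31.6%, 40.6% and 8.62% were called in these 3 comparisons.

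**Figure D4:**
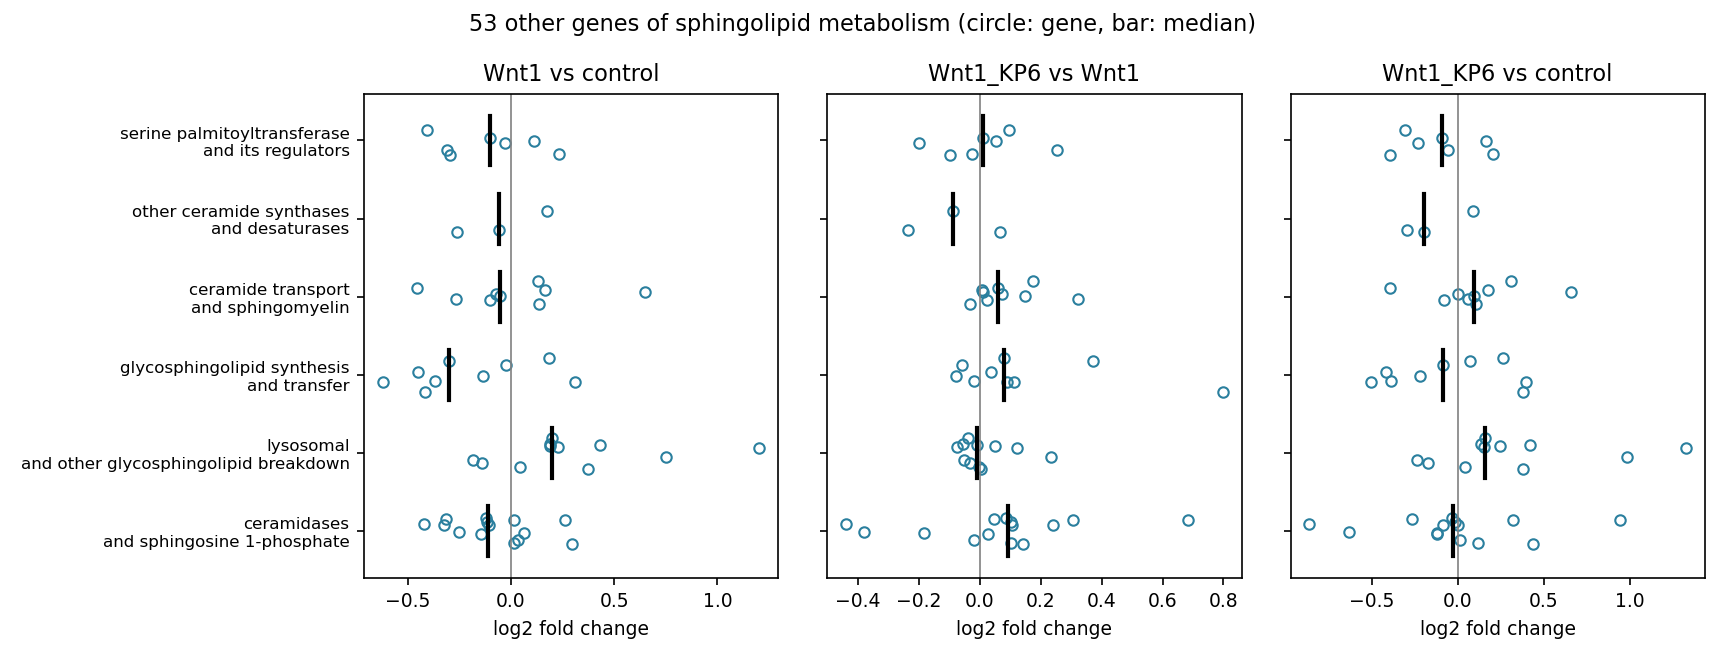
Log2 fold change (horizontal axis) of the 53 other tested genes of sphingolipid metabolism in the 3 comparisons, grouped by role; each circle is a gene and the black bar the median of its role group. In Wnt1 against control the median of the breakdown enzymes is 0.20 and that of glycosphingolipid synthesis -0.30, and no circle passed the edgeR test.

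Over the 9 libraries, the genes whose log2 CPM followed UGT8 most closely, of 10604 genes with a mean of at least 5 CPM, were ANKRD36 (Pearson r = 0.99), SPIN4 (0.98), IKBIP (0.97), IMPACT (0.97) and ERLIN2 (0.96). For each of the 5, all control libraries lay above the other 6, a pattern that the choice by likeness to UGT8 fixes. The 9 points share their groups, and no p is given. IKBIP, for example, was at 105, 128 and 117 CPM in control and at 72.6 to 81.3 CPM elsewhere. ANKRD36 belongs to a family of near-identical copies, and its counts are uncertain. None of the 5 is a gene of sphingolipid metabolism on the lists used here.

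Of the cell type marker lists, only that of the proximal tubule had a summed level with control apart from both other groups. Of all single genes tested, 8.67% in Wnt1 and 8.74% in Wnt1_KP6 had every library above every control library. The fibroblast sums of Wnt1_KP6 and the myelin sums of both plasmid groups overlapped control. The summed level of the 11 proximal tubule markers, nearly all of it from PAX8 and GGT1, was 629 to 741 CPM in control, 784 to 923 in Wnt1 and 788 to 978 in Wnt1_KP6. That of 5 fibroblast markers, of which COL1A1 alone averaged at least 1 CPM, was 21.2 to 34.8 CPM in control, 15.5 to 20.1 in Wnt1 and 17.6 to 22.9 in Wnt1_KP6. The 5 myelin markers summed to 106 to 128, 118 to 127 and 109 to 130 CPM. The distal nephron list reached at most 0.955 CPM, the leukocyte list 0.461 and the endothelial list 0.239, with UMOD, AQP2, PTPRC, CD3E and KDR at 0 in all libraries. Their part in the UGT8 values was not tested.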

How the data were processed

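Polyadenylated RNA of 9 HKC-8 libraries (3 per group, grouped by title and treatment label) was sequenced on a NovaSeq6000, per the labels' protocols. The authors deposited expected counts and FPKM per gene and library, per the file headers, for 20323 genes. The submitters' processing notes name fastp 0.18.0, Bowtie2 2.2.8, HISAT2, StringTie 1.3.1, RSEM and hg38, with no role or order. Of the deposited expected counts, 87.6% were whole, and RSEM-like estimates can split reads between similar genes.

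Counts were rounded, filtered with filterByExpr (minimum count 10, minimum total 15, leaving 13153 genes), scaled by TMM and fitted with edgeR 4.0.16 in R 4.3.3 (robust quasi-likelihood, 3 group means over all 9 libraries). P-values are two-sided and Benjamini-Hochberg adjusted over all genes tested in a comparison, with a threshold of 0.05. CPM use TMM-scaled library sizes, and the deposited FPKM were used to compare genes with each other. The shares of UGT8 and CERS2 built from FPKM were also set beside each other across libraries. FPKM did not follow CPM exactly. UGT8 was at 24.8 CPM in both Wnt1 replicate 2 and Wnt1_KP6 replicate 3, but at 9.06 and 7.87 FPKM. Alternatives were DESeq2 1.42.0, RLE size factors, no filter, a replicate block and leaving out each library; replicates 2 and 3 alone were added after seeing the data. Same-numbered libraries deviated together (correlation of deviations 0.11 to 0.67 in 9 pairs). Replicates 2 and 3 of different groups did so too when their numbers differed (0.15 to 0.40). Pairs of replicate 1 with another number were negative. The correlations thus set replicate 1 apart and do not show that replicates 2 and 3 are paired by number. The main fit did not pair the libraries. The replicate block and the differences by replicate number follow the titles.

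The genes described and all lists were chosen with earlier results of these data known. From the list of 63, the genes named in each role group and comparison were those called, or else the 2 with the smallest p. HEXA was named by Wnt1_KP6 against Wnt1 and is also given for Wnt1 against control. The 5 genes most like UGT8 were those with the highest Pearson r. Gene positions came from GENCODE 29 (20171 of 20323 identifiers matched), and promoter windows from RefSeq. Marker lists are given for the genes named, and 2 further marker genes are not reported here.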

Additional observations from a re-analysis of the deposited data

How the results depend on the processing

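UGT8 stayed lower in Wnt1_KP6 than in control under every alternative run, and its edgeR call was lost in 6 of the 9 leave-one-out fits. The replicate block left the edgeR calls of the 9 tested genes and of the 53 pathway genes as they were (UGT8 in Wnt1_KP6 against control, adjusted p = 0.0207 with the block) and changed no other call, while over all genes the block raised the calls to 0.722% in Wnt1 against control and 1.13% in Wnt1_KP6 against control. Called pathway genes were 1 (Wnt1 against control) and 3 (Wnt1_KP6 against control) with DESeq2, and 25, 6 and 25 of 52 in the 3 comparisons with replicates 2 and 3 alone (31.6%, 8.62% and 40.6% of all genes). They ranged from 0 to 7, 0 to 0 and 0 to 8 when each library was left out in turn, with 7 and 8 reached without control replicate 1, where 6.62% and 9.03% of all genes were called, and 1 call in Wnt1_KP6 against control without Wnt1_KP6 replicate 1, where 5.2% of all genes were. Called members were 1 (UGCG, Wnt1_KP6 against Wnt1) and 2 (UGT8 and CERS2, Wnt1_KP6 against control) with replicates 2 and 3 alone, beside 8.62% and 40.6% of all genes, and 0 to 2 in Wnt1_KP6 against control over the leave-one-out fits.

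In the 2 comparisons with KP6, the signs that changed were those of values within their SE of 0 and that of GAL3ST1. Between Wnt1_KP6 and Wnt1, GAL3ST1 was -0.011 with the replicate block and -0.076 over replicates 2 and 3, and B4GALT5 -0.012 over replicates 2 and 3; between Wnt1_KP6 and control, GAL3ST1 was -0.10 over replicates 2 and 3. Leaving out each library in turn, the log2 fold change between Wnt1_KP6 and Wnt1 ranged from -0.14 to 0.035 for UGT8, -1.45 to 1.39 for GAL3ST1, -0.31 to 0.32 for B4GALT5, -0.55 to 0.36 for A4GALT, -0.027 to 0.0026 for CERS2 and -0.019 to 0.11 for CERS5. Between Wnt1_KP6 and control it ranged from -0.32 to 1.57 for GAL3ST1, -0.16 to 0.12 for UGCG, -0.058 to 0.41 for B4GALT5, -0.61 to 0.25 for A4GALT, -0.049 to 0.053 for SPTLC1 and -0.025 to 0.097 for CERS6. Between Wnt1 and control the sign changed for GAL3ST1 (-0.24 to 1.56), A4GALT (-0.49 to 0.33), B4GALT5 (-0.049 to 0.40) and CERS5 (-0.0016 to 0.12). The cause of these changes was not tested. GALC, whose counts were at most 2, did not enter the tests, and the cause of its low counts was not tested.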
